A study of Mus musculus with 9 samples.

Results

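Selenoproteins are proteins that carry selenocysteine, the selenium form of cysteine, and 10 of their genes were followed in mouse gastrocnemius, the large calf muscle, rich in fast fibres. The genes were the glutathione peroxidases Gpx1, Gpx3 and Gpx4, the thioredoxin reductases Txnrd1 and Txnrd2, and Selenow, Selenop, Selenom, Selenof and Selenon. They were taken as the rows of the deposited count table whose gene name equals one of these symbols, which found all 10 among 56791 genes. All 10 also passed the filter on low counts, which kept 17534 genes.

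The table holds RNA sequencing counts of 9 libraries from female mice, 3 in each of 3 groups. The first group was aged mice given ginkgolide B (GB), a ginkgo terpene lactone known to block the receptor of platelet activating factor, at 12 mg per kg. The second was aged mice given saline vehicle, and the third was young mice given the same vehicle. All groups were dosed daily by oral gavage for 2 months. The titles of the vehicle libraries carry 3M for young and 23M for aged, and those of the GB libraries carry no age value beyond the label aged. No strain, genotype or allele is given, there was no young group given GB, and nothing in the labels ties libraries to separate animals. The p-values below therefore measure the spread among the libraries, which may be technical.

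Selenocysteine is written into protein at an in-frame UGA codon, which otherwise stops translation. A stem-loop in the 3′ untranslated region of the mRNA, the SECIS element, recruits the proteins that deliver the selenocysteine tRNA to that codon. Most members are oxidoreductases with selenocysteine at the active site, and several reduce peroxides or keep thioredoxin reduced. Skeletal muscle is a tissue in which lack of selenium causes disease in livestock, and defects of SELENON cause a congenital myopathy in humans. Under selenium shortage the mRNAs of Gpx1 and Selenow are known to decline before those of most other members.

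The UGA codon sits at different places in the members, and the coding sequence around it is shown because it is the feature that makes these genes a family. The sequences below were read from the GENCODE M21 annotation on build GRCm38, with up to 24 coding bases on each side and TGA, the selenocysteine codon, in capitals. In Gpx1, on the plus strand at chr9:108339451-108339453, it is codon 47 of 201, in Gpx3, on the plus strand at chr11:54907256-54907258, codon 73 of 226, and in Gpx4, on the plus strand at chr10:80054737-80054739, codon 73 of 197. In Txnrd1 (plus strand, chr10:82896037-82896039) and Txnrd2 (plus strand, chr16:18477772-18477774) only 1 codon follows it before the stop. Selenow, on the minus strand, has it at chr7:15920464-15920466, codon 13 of 88. Selenop has 10 such codons on the plus strand, the first at chr15:3274848-3274850, codon 59 of 380, and the last at chr15:3279696-3279698, codon 377. Codon 375 of Selenop, also a selenocysteine codon, falls within the sequence shown for the last and is in lower case there. Selenom, Selenof and Selenon have 1 each, at codons 48 of 145, 93 of 162 and 428 of 557.
Gpx1: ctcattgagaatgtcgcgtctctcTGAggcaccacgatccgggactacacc
Gpx3: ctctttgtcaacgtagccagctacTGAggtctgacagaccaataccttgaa
Gpx4: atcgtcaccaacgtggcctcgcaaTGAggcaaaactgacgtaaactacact
Txnrd1: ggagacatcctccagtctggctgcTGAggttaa
Txnrd2: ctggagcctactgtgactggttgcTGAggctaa
Selenow: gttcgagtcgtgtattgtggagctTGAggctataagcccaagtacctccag
Selenop, first codon: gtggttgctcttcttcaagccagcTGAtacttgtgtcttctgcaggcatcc
Selenop, last codon: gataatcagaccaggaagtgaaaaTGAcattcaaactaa

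Libraries from GB mice differed from all vehicle libraries in ways that touch every GB value below. Total counts ran over 39478427 to 44294097 with GB and 51543383 to 61680520 with vehicle, and 18678 to 19362 genes had a count with GB against 22616 to 24185 with vehicle. Of all counts, genes of the mitochondrial genome held 24.3 to 26.1% with GB, 13.9 to 15.3% with aged vehicle and 8.60 to 10.2% with young vehicle. Between GB and aged vehicle the median log2 fold change was 0.78 for genes of 501 to 1000 bases and -0.23 for genes of 4001 to 8000 bases, by the table's length column. All GB libraries are treated ones and the labels give no batch, so the treatment and anything else shared by those libraries cannot be told apart. The muscle fibre markers Acta1, Ckm, Myh4, Mb and Tnnt3 summed to at least 71154 CPM in every library, where CPM is the count relative to the TMM-scaled library size.

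Between aged GB and aged vehicle muscle, 6 of the 10 selenoprotein transcripts rose, 2 fell and 2 did not pass the test. The risers were Gpx1, Selenow, Gpx3, Gpx4, Txnrd2 and Selenom, and the fallers were Selenop and Txnrd1. Over all genes tested, 53.2% were called in the same comparison, 24.4% higher and 28.8% lower. The 3 GB libraries lay above all 3 aged vehicle libraries for 7 members, against 27.3% of all genes, and below them for 2 members, against 32.5% of all genes. The median log2 fold change was 1.03 over the 10 members and -0.05 over all genes. Length differs between these sets. Over all genes of 1001 to 2000 bases, the class of 4 members, the median was 0.64. Over those of 501 to 1000 bases, the class of 1 member, it was 0.78. Calls rest on edgeR's quasi-likelihood test at an adjusted p (Benjamini-Hochberg, all genes tested) under 0.05. In a whole-tissue RNA sample, fewer cells of a type and less RNA per cell cannot be told apart.

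**Figure D1:**
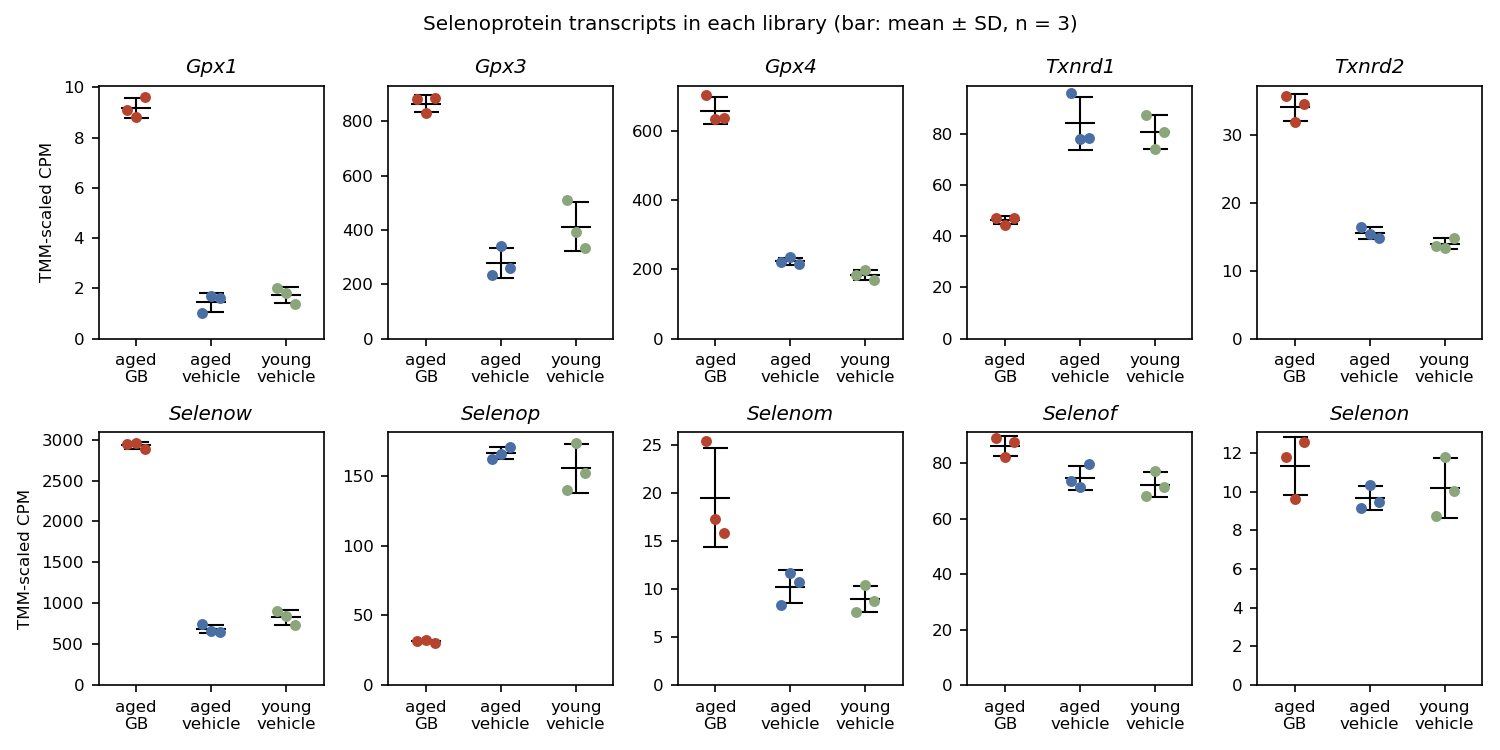
Each panel shows 1 selenoprotein transcript as TMM-scaled CPM on a linear axis from 0, with a point per library and a bar for the mean and SD of 3 libraries in aged GB, aged vehicle and young vehicle muscle. The GB points lie above all vehicle points for 7 transcripts and below them for Txnrd1 and Selenop, and they overlap the vehicle points for Selenon.

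The glutathione peroxidases reduce hydrogen peroxide or lipid hydroperoxides with glutathione. Gpx1, the cytosolic and mitochondrial peroxidase found in nearly all cells, had 9.09, 8.82 and 9.63 CPM in aged GB libraries, against 1.02, 1.71 and 1.63 CPM in aged vehicle and 1.99, 1.82 and 1.38 CPM in young vehicle libraries. All GB libraries were higher than all vehicle libraries, while the aged and young vehicle libraries overlapped. These levels rest on few reads, and whether they depend on the gene annotation used for counting, which is not given, was not tested. The counts were 286 to 301 per library with GB, 58 to 108 in aged vehicle libraries and 96 to 135 in those of young vehicle. Gpx1 was 6.31-fold higher in aged GB than in aged vehicle muscle, a log2 fold change of 2.66 (SE 0.25, adjusted p = 1.78e-06), and 98.1% of all genes tested had a lower log2 fold change. Between aged and young vehicle it differed by -0.25 on the log2 scale (SE 0.24, adjusted p = 0.605).

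Gpx3, the peroxidase secreted into plasma and extracellular space, had 882, 829.6 and 885 CPM in aged GB libraries, against 233, 340.2 and 260.2 CPM in aged vehicle and 510.3, 391 and 333 CPM in young vehicle libraries. The GB libraries were again the highest, and a single aged library reached into the range of the young ones. The log2 fold change of GB against aged vehicle was 1.64 (SE 0.16, adjusted p = 7.63e-06). Aged vehicle was lower than young vehicle by a log2 fold change of -0.57 (SE 0.16), which did not pass the test (adjusted p = 0.0537). That age difference was called at -0.70 (adjusted p = 0.0295) without young vehicle replicate 3 and at -0.74 (adjusted p = 0.0203) without aged vehicle replicate 2.

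Gpx4, the enzyme that reduces lipid hydroperoxides within membranes and so restrains ferroptosis, had 702, 634 and 635 CPM in aged GB libraries, against 221, 234 and 215 CPM in aged vehicle and 184, 199 and 169.6 CPM in young vehicle libraries. The groups did not overlap, with GB highest, aged vehicle next and young vehicle lowest. The log2 fold change of GB against aged vehicle was 1.56 (SE 0.08, adjusted p = 1.54e-08). Aged against young vehicle gave 0.28 (SE 0.08, adjusted p = 0.0529), just outside the threshold. Of the 75-base stretches of the Gpx4 transcript, 62.4% occur also in transcripts of the processed pseudogene Gpx4-ps2, of which 1 aligned to Gpx4 over 555 bases at 99.6% identity, and 4.86% in a further pseudogene, AC122253.3. The counting of reads between Gpx4 and these copies is uncertain. Gpx4-ps2 itself held 82.3 to 102 CPM with GB, 37.9 to 41.1 CPM in aged vehicle libraries and 30.6 to 36.5 CPM in those of young vehicle, and the summed counts of both gave a log2 fold change of 1.51 for GB against aged vehicle.

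The thioredoxin reductases use NADPH to keep thioredoxins reduced, Txnrd1 in the cytosol and nucleus and Txnrd2 in mitochondria. Txnrd1 had 47.2, 44.4 and 47.1 CPM in aged GB libraries, against 96.0, 77.8 and 78.2 CPM in aged vehicle and 87.2, 74.0 and 80.6 CPM in young vehicle libraries. The GB libraries were the lowest and the vehicle groups overlapped. Txnrd1 fell with GB by a log2 fold change of -0.86 (SE 0.10, adjusted p = 1.39e-05) and differed by 0.06 between aged and young vehicle (SE 0.10, adjusted p = 0.796). Its 7086 bases make it the longest of the 10 genes in the length column.

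Txnrd2 had 35.8, 31.9 and 34.5 CPM in aged GB libraries, against 16.5, 15.3 and 14.9 CPM in aged vehicle and 13.6, 13.4 and 14.9 CPM in young vehicle libraries. The GB libraries were the highest, and the lowest aged value lay just above the highest young value. Txnrd2 rose with GB by a log2 fold change of 1.13 (SE 0.10, adjusted p = 1.4e-06), and its difference with age was 0.16 (SE 0.10, adjusted p = 0.398). The mitochondrial reductase was thus called higher and its cytosolic relative lower in the same libraries.

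Selenow, a small thioredoxin-like protein abundant in muscle, was the member with the highest counts. It had 2952, 2958 and 2886 CPM in aged GB libraries, against 745, 666 and 652 CPM in aged vehicle and 902, 847 and 729 CPM in young vehicle libraries. The GB libraries lay far above both vehicle groups, and the aged and young vehicle libraries overlapped through the highest aged and the lowest young value. Selenow was 4.26-fold higher with GB than in aged vehicle muscle, a log2 fold change of 2.09 (SE 0.09, adjusted p = 3.26e-09). Aged against young vehicle gave -0.26 (SE 0.09), which did not pass the test (adjusted p = 0.0855). Selenow is also the shortest member in the length column, with 736 bases, and its GB change was 1.17 with an offset for the gene length trend.

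Selenop, the secreted carrier that brings selenium from the liver to other tissues in its many selenocysteine residues, had 31.7, 32.3 and 29.8 CPM in aged GB libraries. It had 162, 166 and 171 CPM in aged vehicle and 140.0, 174 and 153 CPM in young vehicle libraries. The GB libraries were the lowest by a wide margin, while the aged libraries lay inside the range of the young ones. Selenop fell with GB to 0.188 of its aged vehicle level, a log2 fold change of -2.41 (SE 0.09, adjusted p = 1.36e-09), and 5.81% of all genes tested had a lower log2 fold change. The difference with age was 0.10 (SE 0.09, adjusted p = 0.574). With its 2842 bases Selenop lies in the length class of 2001 to 4000 bases, whose median log2 fold change was 0.19. Exons of Selenop and Ccdc152 overlap in the annotation. Of the 75-base stretches of the Selenop transcript, 18.8% occur in Ccdc152 transcripts on either strand, and Ccdc152 itself held 18 to 70 counts per library.

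Selenom, Selenof and Selenon belong to the endoplasmic reticulum. Selenom, a thioredoxin-fold protein of its lumen, had 25.4, 17.3 and 15.8 CPM in aged GB libraries, against 8.36, 11.7 and 10.7 CPM in aged vehicle and 7.65, 10.4 and 8.81 CPM in young vehicle libraries. The GB libraries were all higher, with 1 GB library well above the other 2, and the vehicle groups overlapped. Its log2 fold change with GB was 0.93 (SE 0.20, adjusted p = 0.00159), and with age 0.20 (SE 0.20, adjusted p = 0.623). The GB call was lost with the gene length offset (0.27, adjusted p = 0.227) and with library totals (0.36, adjusted p = 0.161).

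Selenof, which binds the glycoprotein folding sensor UGGT, had 89.0, 82.1 and 87.7 CPM in aged GB libraries, against 73.5, 71.3 and 79.6 CPM in aged vehicle and 68.2, 77.1 and 71.3 CPM in young vehicle libraries. The GB libraries were all higher by a small margin, and the vehicle groups overlapped. The log2 fold change with GB was 0.21 (SE 0.08, 95% interval 0.03 to 0.39, adjusted p = 0.0517), and it was -0.36 (adjusted p = 0.00342) with library totals and 0.48 (adjusted p = 0.000514) with the gene length offset. DESeq2 and limma-voom called it higher (adjusted p = 0.0444 and 0.0486). Between aged and young vehicle it was 0.05 (SE 0.08, adjusted p = 0.787).

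Selenon, a membrane protein of the endoplasmic reticulum that supports calcium reuptake in muscle, had 11.8, 9.63 and 12.6 CPM in aged GB libraries, against 9.17, 10.4 and 9.49 CPM in aged vehicle and 8.73, 11.8 and 10.1 CPM in young vehicle libraries. All 3 groups overlapped. The log2 fold change with GB was 0.23 (SE 0.16, 95% interval -0.11 to 0.56, adjusted p = 0.24), and -0.34 (adjusted p = 0.0867) with library totals. Between aged and young vehicle it was -0.08 (SE 0.15, 95% interval -0.41 to 0.26, adjusted p = 0.838).

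**Figure D2:**
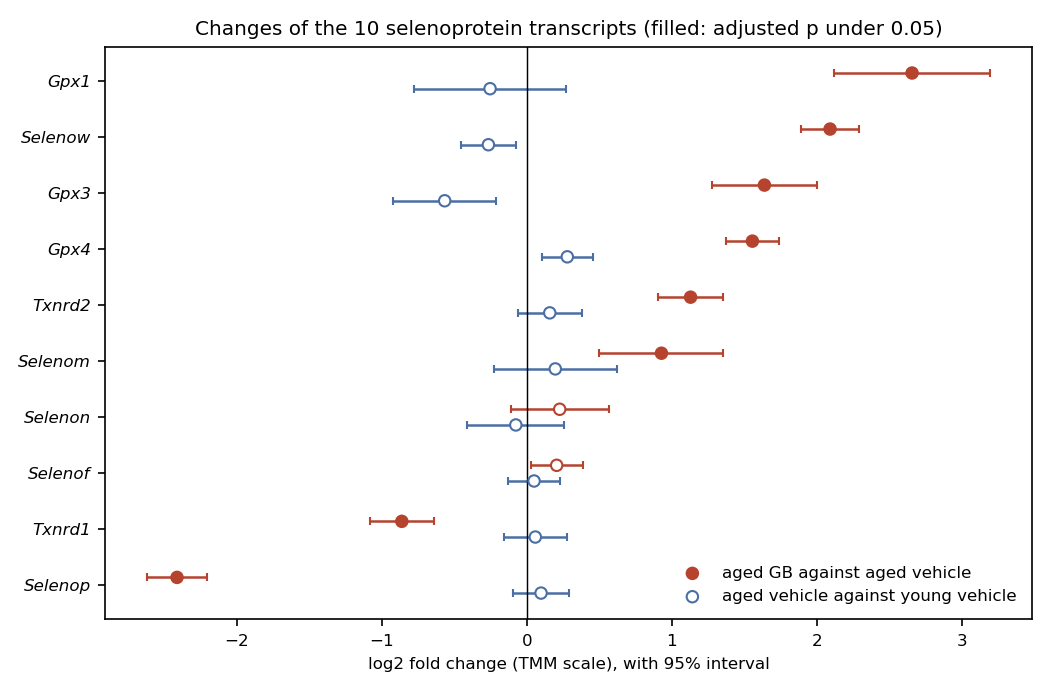
The log2 fold change of each transcript on the TMM scale, with its 95% interval, is plotted for aged GB against aged vehicle (red) and aged vehicle against young vehicle (blue), and filled points passed an adjusted p under 0.05. The GB changes run over 2.66 for Gpx1 to -2.41 for Selenop, while all age changes lie between -0.57 and 0.28 and none is filled.

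The first comparison of the series design set aged against young muscle under vehicle. None of the 10 members passed the test, where 8.6% of all genes were called, 4.32% higher and 4.28% lower. At an unadjusted p under 0.05, 3 members passed, Gpx4 with a higher and Gpx3 and Selenow with a lower level in aged muscle. The share of all genes at that looser threshold was not computed, so this count cannot be set against it. DESeq2 and limma-voom each called Gpx4 higher (adjusted p = 0.0247 and 0.0349) and Gpx3 lower (adjusted p = 0.00863 and 0.0354) in aged muscle. The aged libraries lay above all young libraries for Gpx4 and Txnrd2, and for no member below, where 17.5% and 16.9% of all genes did so. The median log2 fold change was 0.05 over the members.

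Aged GB muscle was also set against young vehicle muscle, a comparison that the series design does not name and that shares its libraries with both others. There 7 members were called higher and 2 lower, where 53.6% of all genes were called, 24.7% higher and 29% lower. The GB libraries lay above all young ones for 7 members and below them for 2, against 27.5% and 33.2% of all genes. Gpx1 gave a log2 fold change of 2.40 (SE 0.24), Gpx4 1.84 (SE 0.08), Selenow 1.83 (SE 0.09), Txnrd2 1.29 (SE 0.10), Selenom 1.13 (SE 0.20) and Gpx3 1.07 (SE 0.16). Txnrd1 gave -0.80 (SE 0.10) and Selenop -2.31 (SE 0.09). Library totals gave 0.51 for Gpx3 (adjusted p = 0.0307), 0.58 for Selenom (adjusted p = 0.0333), 0.73 for Txnrd2 and -1.36 for Txnrd1. The gene length offset gave 0.90 for Selenow, 0.56 for Gpx3 (adjusted p = 0.0156), 0.49 for Selenom (adjusted p = 0.0343) and -0.40 for Txnrd1, and with the replicate block as well the call of Selenom was lost (0.49, adjusted p = 0.0552). Selenof was called here at 0.26 (SE 0.08, adjusted p = 0.0193), and it was -0.30 (adjusted p = 0.0103) with library totals and not called with no filter on low counts (adjusted p = 0.139). Its call was also lost, at an adjusted p of 0.051 to 0.0942, without GB replicate 1, GB replicate 3, young vehicle replicate 1 or young vehicle replicate 3. Selenon gave 0.15 (SE 0.15, adjusted p = 0.435), and -0.40 (adjusted p = 0.0457) with library totals.

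The size of the GB changes depended on how libraries were scaled. With library totals in place of TMM factors the log2 fold change over all genes had a median of -0.62 in place of -0.05, and 2030 genes were called higher and 8421 lower where the TMM scale gave 4281 and 5045. Gpx1 was then at 2.08, Selenow at 1.53, Gpx3 at 1.07, Gpx4 at 0.99, Txnrd2 at 0.57, Txnrd1 at -1.42 and Selenop at -2.98, and all 7 passed the test. With the gene length offset the same genes were at 1.997, 1.17, 1.10, 0.98, 1.21, -0.47 and -2.62, and all again passed the test. The part of gene length in these differences was not tested beyond that offset.

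**Figure D3:**
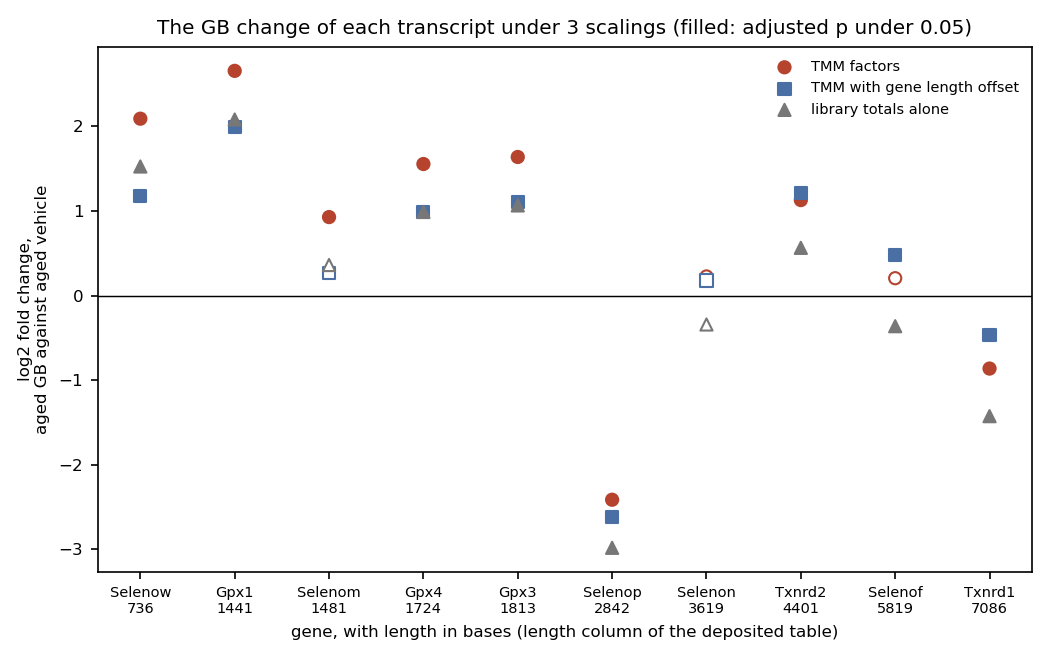
The log2 fold change of aged GB against aged vehicle is drawn for each transcript, ordered by gene length in bases, under TMM factors (circles), TMM with a gene length offset (squares) and library totals (triangles), and filled symbols passed an adjusted p under 0.05. Gpx1, Gpx3, Gpx4, Selenow and Txnrd2 stay above 0 and Txnrd1 and Selenop below 0 under all 3, while Selenof and Selenon are negative with library totals.

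Levels were compared between genes only per kilobase of the table's length column. That length can exceed the GENCODE M21 transcript that gave the sequences above. It was 1724 against 959 bases for Gpx4, 1813 against 1594 for Gpx3 and 5819 against 1514 for Selenof. The order of members, Gpx3 above Gpx4 included, holds for the length column and was not computed with transcript lengths. Selenow was the highest member in every group, with 3984 ± 54.2 CPM per kilobase in aged GB, 934 ± 68.6 in aged vehicle and 1122 ± 120 in young vehicle muscle (SD, n = 3 each). Gpx3 followed with 477 ± 17.1, 153 ± 30.7 and 227 ± 49.95 CPM per kilobase in the same order, and Gpx4 with 381 ± 22.7, 129.6 ± 5.66 and 107 ± 8.44. The libraries of Gpx3 and Gpx4 overlapped in aged vehicle muscle and did not in the other groups. Selenop was the fourth in both vehicle groups, with 58.6 ± 1.58 CPM per kilobase in aged and 54.8 ± 6.09 in young muscle, and only the sixth in aged GB muscle, with 11.0 ± 0.455.

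Lower down the order the members lay close together. In aged GB muscle Selenof, Selenom and Selenop had 14.8 ± 0.630, 13.2 ± 3.49 and 11.0 ± 0.455 CPM per kilobase, and Selenom overlapped both its neighbours. Txnrd2, Txnrd1 and Gpx1 came next with 7.74 ± 0.451, 6.52 ± 0.217 and 6.37 ± 0.285, the last pair overlapping, and Selenon was the lowest with 3.13 ± 0.421. In aged vehicle muscle Selenof and Txnrd1 overlapped at 12.9 ± 0.737 and 11.9 ± 1.46, followed by Selenom, Txnrd2 and Selenon at 6.92 ± 1.15, 3.54 ± 0.190 and 2.67 ± 0.173. Gpx1 was the lowest there at 1.01 ± 0.260 and in young vehicle muscle at 1.202 ± 0.219. In young vehicle muscle the order was the same as in aged vehicle, with overlaps between Selenof and Txnrd1 and between Txnrd2 and Selenon.

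Selenow held the largest part of the summed level. The 10 transcripts together had 4786, 4648 and 4643 CPM in aged GB libraries. They had 1566, 1594 and 1493 CPM in aged vehicle and 1923, 1799 and 1571 CPM in young vehicle libraries. Gpx3 averaged 865 CPM in aged GB, 278 in aged vehicle and 411 in young vehicle muscle, against 657, 223 and 184 CPM for Gpx4. As a share of raw counts, the members made up 0.350 to 0.381% with GB, 0.171 to 0.187% in aged vehicle libraries and 0.177 to 0.223% in those of young vehicle. Leaving out Selenow and Gpx3, a pair chosen after their values were seen, the other 8 made up 0.0647 to 0.0759% with GB, 0.0642 to 0.0689% in aged vehicle libraries and 0.0574 to 0.0628% in those of young vehicle. On that scale the GB and aged vehicle ranges of the 8 overlapped. On the TMM scale the 8 summed to 952, 861 and 872 CPM in aged GB libraries, against 588, 589 and 581 CPM in aged vehicle and 511, 561 and 509 CPM in young vehicle libraries, with no overlap between GB and either vehicle group.

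**Figure D4:**
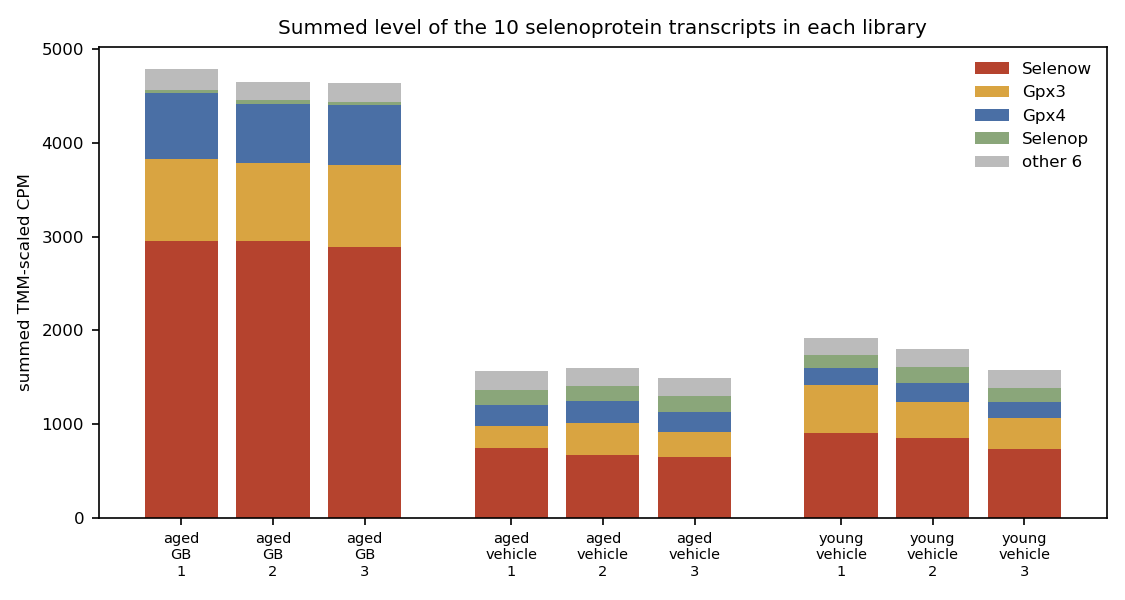
Stacked bars give the summed TMM-scaled CPM of the 10 transcripts in each library, with Selenow, Gpx3, Gpx4 and Selenop drawn apart from the other 6. The 3 GB bars reach 4643 to 4786 CPM, against 1493 to 1594 in aged vehicle libraries and 1571 to 1923 in those of young vehicle, and Selenow is the largest block in every bar.

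The remaining selenoprotein genes moved in both directions with GB. Of 14, 11 passed the filter (Gpx2, Dio1 and Selenov did not), and 6 were higher and 2 lower in aged GB than in aged vehicle muscle, where 24.4% of all genes were higher and 28.8% lower. Library totals gave 3 and 5, on a scale that also moved the calls over all genes toward lower. The length offset gave 3 and 2. For this list and those below, the share of all genes called with the length offset is not given. Selenok, an endoplasmic reticulum membrane protein that takes part in protein palmitoylation, averaged 169 ± 1.26 CPM in GB and 59.6 ± 2.49 CPM in aged vehicle muscle, a log2 fold change of 1.501 (SE 0.09, adjusted p = 2.92e-08). Selenoh, a nucleolar redox protein, averaged 12.5 ± 1.00 and 5.43 ± 0.691 CPM in the same order, a log2 fold change of 1.21 (SE 0.15, adjusted p = 2.95e-05). Selenoo, a mitochondrial enzyme that attaches AMP to proteins, averaged 2.24 ± 0.392 CPM in GB and 11.5 ± 2.02 CPM in aged vehicle muscle, a log2 fold change of -2.36 (SE 0.20, adjusted p = 6.4e-07). Selenoi, an enzyme of phospholipid synthesis, was lower at -1.01 (adjusted p = 0.00103), a call that the length offset ended (-0.27, adjusted p = 0.307). Selenos, part of the system that exports misfolded proteins from the endoplasmic reticulum, was called higher at 0.45 (adjusted p = 0.00906), and it was -0.12 with library totals and -0.20 with the length offset. That call was also lost without aged vehicle replicate 3 or GB replicate 2 (adjusted p = 0.0509 and 0.0501).

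With age, 0 of these 11 were higher and 2 were lower, where 4.32% of all genes were higher and 4.28% lower. Selenoh averaged 5.43 ± 0.691 CPM in aged and 8.04 ± 0.8003 CPM in young vehicle muscle, a log2 fold change of -0.57 (SE 0.15, adjusted p = 0.0393). Selenos averaged 19.1 ± 1.93 and 26.0 ± 1.23 CPM in the same order, a log2 fold change of -0.45 (SE 0.12, adjusted p = 0.045). All aged libraries were below all young ones for both genes, and both calls were lost, at an adjusted p of 0.0573 to 0.176, without any single library of these groups other than aged vehicle replicate 1. Against young vehicle muscle, GB muscle had 4 of the 11 higher and 3 lower, where 24.7% of all genes were higher and 29% lower.

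Genes that make, insert or take up selenocysteine also split. Of 16, all but the selenoprotein P receptor Lrp2 passed the filter, and 7 were higher and 4 lower in aged GB than in aged vehicle muscle, against 24.4% and 28.8% of all genes. Library totals, with which calls over all genes also moved toward lower, gave 2 and 8, and the length offset gave 6 and 1. Rpl30, a ribosomal protein that also binds SECIS elements, averaged 416 ± 13.5 CPM in GB and 84.5 ± 3.05 CPM in aged vehicle muscle, a log2 fold change of 2.30 (SE 0.09, adjusted p = 1.12e-09). Ribosomal protein genes have many pseudogenes, so its count is uncertain. Trnau1ap, a protein that binds the selenocysteine tRNA, was higher at 1.07 (SE 0.14, adjusted p = 3.01e-05), and Eefsec, the elongation factor for that tRNA, at 0.93 (SE 0.25, adjusted p = 0.00697), a call that library totals ended (0.38, adjusted p = 0.222). Alkbh8, which modifies the wobble base of that tRNA, was lower at -0.99 (SE 0.14, adjusted p = 6.74e-05). Secisbp2l and Sepsecs, a SECIS-binding protein and the synthase of selenocysteine on its tRNA, were lower at -0.60 (adjusted p = 0.000868) and -0.48 (adjusted p = 0.0305), and the length offset ended both calls, at -0.10 and -0.09. The call of Sepsecs was also lost without replicate 1 or 2 of either aged group (adjusted p of 0.0621 to 0.102). None of the 15 passed the test with age, where 8.6% of all genes did. At an unadjusted p under 0.05, 3 passed, DESeq2 called 1 higher and 1 lower, and limma-voom 0 higher and 1 lower. No share of all genes is given for these other counts. Against young vehicle muscle, GB muscle had 7 higher and 3 lower, where 24.7% of all genes were higher and 29% lower.

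**Figure D5:**
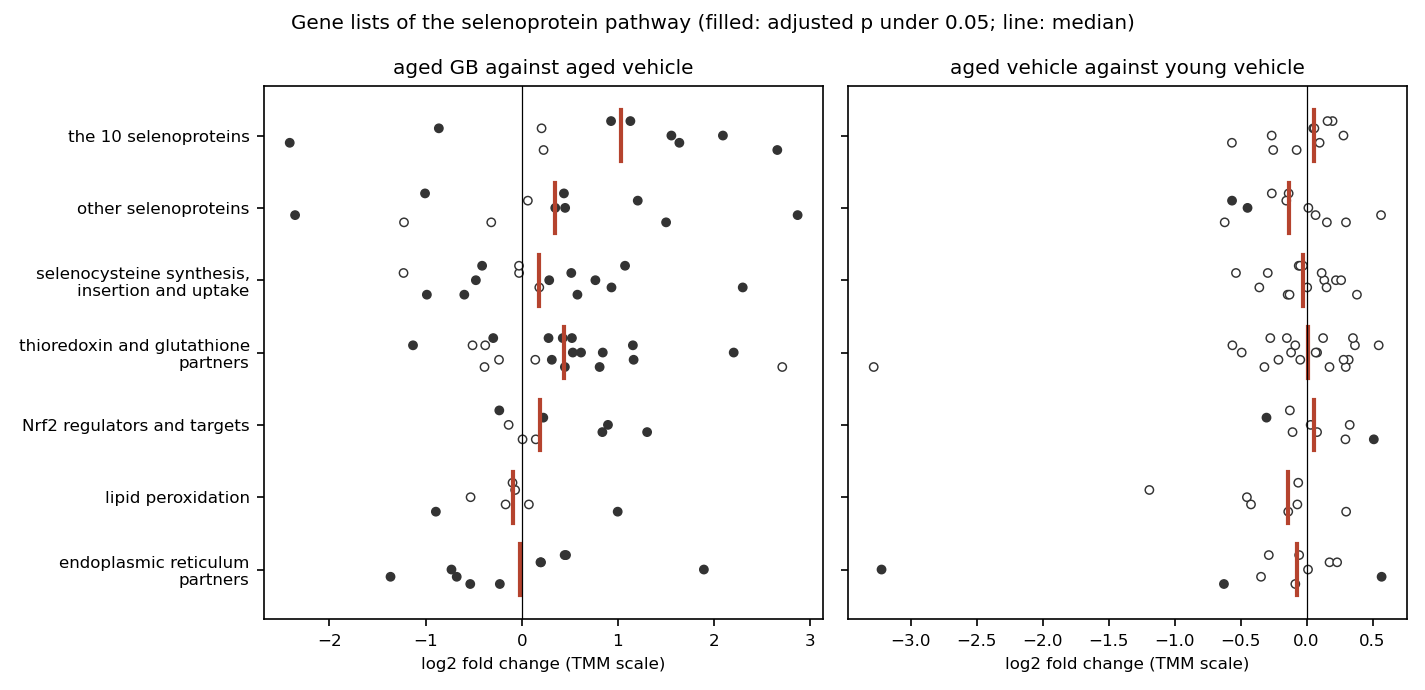
Each point is the log2 fold change of 1 gene on the TMM scale, by gene list, for aged GB against aged vehicle (left) and aged vehicle against young vehicle (right), with filled points at an adjusted p under 0.05 and a line at each list's median. The members' median is at 1.03 with GB and at 0.05 with age, and every list has points on both sides of 0 in both panels.

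The members work with thioredoxins and glutathione, and 12 of 20 genes of those systems were higher and 2 lower in aged GB than in aged vehicle muscle, against 24.4% and 28.8% of all genes. Library totals, with which calls over all genes also moved toward lower, gave 5 and 8, and the length offset gave 8 and 3. Gpx7, a glutathione peroxidase of the endoplasmic reticulum with cysteine in place of selenocysteine, averaged 20.3 ± 1.81 CPM in GB and 4.41 ± 0.457 CPM in aged vehicle muscle, a log2 fold change of 2.20 (SE 0.15, adjusted p = 1.33e-07). Txn1, the cytosolic thioredoxin that Txnrd1 reduces, averaged 69.3 ± 9.48 and 30.9 ± 2.90 CPM in the same order, a log2 fold change of 1.16 (SE 0.11, adjusted p = 2.5e-06). Msrb3, a methionine sulfoxide reductase without selenocysteine, was lower at -1.13 (SE 0.13, adjusted p = 1.08e-05), and Gsr, the reductase of oxidised glutathione, at -0.30 (SE 0.10, adjusted p = 0.0225), a call lost without aged vehicle replicate 2 or 3 or GB replicate 2 (adjusted p of 0.0532 to 0.0653). None of the 20 passed the test with age, where 8.6% of all genes did. At an unadjusted p under 0.05, 9 passed, DESeq2 called 2 higher and 1 lower, and limma-voom 1 higher and 0 lower. No share of all genes is given for these other counts. Against young vehicle muscle, GB muscle had 10 higher and 2 lower, where 24.7% of all genes were higher and 29% lower.

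Nrf2, encoded by Nfe2l2, drives Txnrd1 and other antioxidant genes and is held back by Keap1. Of 8 regulators and targets, 4 were higher and 1 lower in aged GB than in aged vehicle muscle, 5 of 8 called where 53.2% of all genes were. Library totals, with which calls over all genes also moved toward lower, gave 3 and 4, and the length offset gave 3 and 1. The target Gstm1, a glutathione transferase, averaged 284 ± 48.9 CPM in GB and 115 ± 6.42 CPM in aged vehicle muscle, a log2 fold change of 1.30 (SE 0.11, adjusted p = 7.48e-07). Srxn1, which repairs oxidised peroxiredoxins, was higher at 0.90 (SE 0.13, adjusted p = 9.49e-05), and Nqo1, a quinone reductase, at 0.84 (SE 0.10, adjusted p = 1.9e-05), a call that the length offset ended (0.21, adjusted p = 0.137). Txnrd1, also a known Nrf2 target, was called lower in the same libraries. With age, Nfe2l2 was higher at 0.51 (SE 0.13, adjusted p = 0.0302) and Keap1 lower at -0.30 (SE 0.09, adjusted p = 0.0498), and the call of Nfe2l2 was lost (adjusted p of 0.0798 to 0.143) without replicate 2 or 3 of either vehicle group. The call of Keap1 was lost (adjusted p of 0.11 to 0.186) without any single vehicle library other than aged replicate 1. Over all genes, 4.32% were called higher and 4.28% lower with age. Against young vehicle muscle, GB muscle had 5 of the 8 higher and 1 lower, where 24.7% of all genes were higher and 29% lower.

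Of 7 genes of lipid peroxidation and ferroptosis, the setting in which Gpx4 acts, 1 was higher and 1 lower in aged GB than in aged vehicle muscle, against 24.4% and 28.8% of all genes. Library totals, with which calls over all genes also moved toward lower, gave 1 and 5, and the length offset gave 1 and 1. Pebp1, a scaffold of lipoxygenases, averaged 313 ± 20.4 CPM in GB and 157 ± 4.09 CPM in aged vehicle muscle, a log2 fold change of 1.00 (SE 0.08, adjusted p = 2.87e-07). Acsl4, which loads polyunsaturated fatty acids into membrane lipids, averaged 16.9 ± 4.43 and 31.3 ± 4.77 CPM in the same order, a log2 fold change of -0.89 (SE 0.17, adjusted p = 0.000826). None of the 7 passed the test with age, where 8.6% of all genes did. At an unadjusted p under 0.05, 1 passed, and DESeq2 and limma-voom called 0. No share of all genes is given for these other counts. Against young vehicle muscle, GB muscle had 1 higher and 3 lower, where 24.7% of all genes were higher and 29% lower.

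The partners of the endoplasmic reticulum members all passed the test with GB, 5 of 10 higher and 5 lower, against 24.4% and 28.8% of all genes. Library totals, with which calls over all genes also moved toward lower, gave 1 and 7, and the length offset gave 5 and 1. Atp2a2, the slow fibre calcium pump whose activity Selenon is known to support, averaged 195 ± 26.7 CPM in aged GB and 52.5 ± 1.78 CPM in aged vehicle muscle, a log2 fold change of 1.89 (SE 0.14, adjusted p = 2.96e-07). Atp2a1, the fast fibre pump, averaged 7132 ± 2447 and 18360.5 ± 2249 CPM in the same order, a log2 fold change of -1.36 (SE 0.23, adjusted p = 0.000815). Uggt1, the partner of Selenof, was lower at -0.68 (SE 0.10, adjusted p = 0.000128), and with the length offset it was at 0.06 (adjusted p = 0.579). With age 1 was higher and 2 lower, where 4.32% of all genes were higher and 4.28% lower. Uggt1 was higher at 0.57 (SE 0.10, adjusted p = 0.00493). Ryr1, the calcium release channel, was lower at -0.63 (SE 0.12, adjusted p = 0.00684) and Atp2a2 at -3.22 (SE 0.15, adjusted p = 1.95e-07). Against young vehicle muscle, GB muscle had 3 higher and 5 lower, where 24.7% of all genes were higher and 29% lower.

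Markers of the cell types in the muscle moved with the same groups. The counts below stand beside 24.4% of all genes called higher and 28.8% lower between aged GB and aged vehicle. Between aged GB and aged vehicle, adipocyte markers were higher for 5 of 6 and lower for 0, and summed to 605 to 809 CPM in GB, 245 to 279 in aged vehicle libraries and 258 to 428 in those of young vehicle. Schwann cell markers were higher for 4 of 5, summing to 143 to 238, 97.4 to 111 and 201 to 389 CPM in the same order. Endothelial markers were lower for 5 of 6 and higher for 1, summing to 252 to 298, 538 to 548 and 351 to 369 CPM. Fibroblast markers were lower for 5 of 6 and higher for 1, summing to 498 to 608, 714 to 917 and 794 to 1523 CPM.

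Markers of other cell types were counted in the same comparison, where 24.4% of all genes were higher and 28.8% lower. Red blood cell markers were lower with GB for 4 of 5 and summed to 687 to 782 CPM in GB, 1158 to 2130 in aged vehicle libraries and 232 to 515 in those of young vehicle. Smooth muscle markers were lower for 3 of 5, summing to 367 to 406, 609 to 710.5 and 289 to 315 CPM in the same order. Macrophage markers were lower for 3 of 6 and higher for 1, summing to 123 to 147, 147 to 181 and 146 to 178 CPM. Muscle fibre markers were higher for 2 of 5 and lower for 1, summing to 114131 to 133162, 71154 to 78591 and 99044 to 108563 CPM. No marker was at 0 in all libraries of a group. The part of these marker differences in the selenoprotein changes was not tested.

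For each member the most similar genes were sought among 7402 tested genes of at least 10 CPM, by the root mean square difference of centred log2 CPM over the 9 libraries, which share depth and preparation. Selenow was closest to Drap1, at 0.06, a transcriptional corepressor with 913 CPM in aged GB, 229 in aged vehicle and 273 in young vehicle muscle. Gpx4 was closest to Pgls, an enzyme of the pentose phosphate pathway, and to the lysosomal protease Ctsd, both at 0.06. Selenop was closest to Ctnnb1 (beta-catenin), at 0.10, and Txnrd1 to Fbrs and Timm29, at 0.06 and 0.07. Txnrd2 was closest to Commd4, at 0.07, Selenom to Vim, at 0.10, Selenof to the peroxiredoxin Prdx6, at 0.05, and Selenon to Ints7, at 0.07. Gpx1 and Gpx3 had the loosest matches, Polr2f at 0.18 and Ier2 at 0.15.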

How the data were processed

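The values are whole-number read counts for each gene, deposited by the authors without normalization beside a gene length column in bases. RNA was total gastrocnemius RNA taken into a KAPA mRNA kit, per the labels' protocols. FastQC, HISAT2, SAMtools, DESeq2 and the builds GRCm39 and mm10 are named, without versions, in the submitters' processing notes. Not given in the sources used here are the read counter, the annotation and whether strand was used. The members and gene lists were chosen with earlier results of these data known.

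Counts were tested as deposited with edgeR 4.0.16 in R 4.3.3. Genes were kept by filterByExpr (minimum count 10, minimum total 15), scaled with TMM factors and fitted in 1 quasi-likelihood model (robust=TRUE) with a mean for each of 3 groups over all 9 libraries. Two-sided p-values were adjusted by Benjamini-Hochberg over 17534 genes, with calls at an adjusted p under 0.05. The SE is the size of the log2 fold change divided by the square root of F. For the length offset, log2 CPM (prior count 2) was first taken relative to each gene's mean over the libraries. The offset is each library's lowess trend (span 0.3) of these deviations on log10 gene length, centred within each gene. Alternatives were RLE, upper-quartile and library-total scaling, filters of none and of 1 CPM in 3 libraries, DESeq2 1.42.0, limma-voom (limma 3.58.1), robust=FALSE, only the 2 groups compared, the length offset, the replicate number as a block, and each library left out. Added after the values were seen were Gpx4 summed with Gpx4-ps2 and the same alternatives for the pathway genes named. The procedure was run on simulated data with few genes changed, in both directions, and no trend on gene length. That simulation cannot show how scaling or gene length acts on the GB values here. Replicates differed by more than sampling noise, with a chi-square per degree of freedom of 16.6 to 60.4.

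Pathway genes named are up to 3 in each direction of each list, those of largest log2 fold change among called genes with at least 2 CPM in the higher group; similar genes are the closest 2 per member, not all of them printed. Sequences and coordinates come from GENCODE M21 on GRCm38, and shared stretches are 75-base matches between transcripts.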

Additional observations from a re-analysis of the deposited data

How the results depend on the processing

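Over 633 recomputed member values, 595 kept their direction and their side of the threshold, 22 newly passed it, 9 lost it and 7 turned. Aged GB against aged vehicle kept 6 members higher and 2 lower without each library in turn, and Selenow, Gpx1, Gpx3, Gpx4, Txnrd2, Selenop and Txnrd1 passed under every alternative. The turned values with library totals were -0.36 for Selenof and -0.34 for Selenon against aged vehicle and -0.30 and -0.40 against young vehicle, where 4 members were then lower. With age, Txnrd1 was at -0.0066 without young vehicle replicate 2 and -0.045 without aged vehicle replicate 1, and Selenon at 0.035 without young vehicle replicate 2. Over all libraries left out in turn, Txnrd1 ran over -0.045 to 0.12 and Selenon over -0.18 to 0.035.

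With age, where no member was called, 1 was higher and 1 lower with no filter (Gpx4 and Selenow), with the 1 CPM filter, DESeq2 and limma-voom (Gpx4 and Gpx3). With upper-quartile factors 1 was lower (Selenow), and with only the 2 groups compared or the length offset 1 was higher (Gpx4). Leaving out a library gave 0 to 1 higher and 0 to 2 lower, and 6 to 7 higher for GB against young vehicle. Shares of all genes under these alternatives are not given. The cause of these changes was not tested.

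Among the pathway genes, library totals gave -0.12 for Selenos, -0.11 for Zdhhc6 and -0.13 for Derl2 with GB, against a rise on the TMM scale. The length offset gave -0.20 for Selenos, 0.016 for Mafg, 0.010 for Uggt2 and 0.062 for Uggt1, and with the replicate block as well -0.21, 0.018, 0.0092 and 0.060.

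Same-numbered libraries of different groups did not deviate together (correlations of -0.028 to 0.057), so the numbers are not taken to pair them. With the replicate block, 6 members were higher and 2 lower with GB against aged vehicle, 7 and 2 against young vehicle, and 0 and 0 with age, and with the length offset as well 1 was higher with age and Selenom lost its call against aged vehicle (0.27, adjusted p = 0.269) and young vehicle (0.49, adjusted p = 0.0552). Depth limits the precision of Gpx1, which rests on 58 to 301 counts a library.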
